A study of Mus musculus with 32 samples.

Results

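Mitochondrial ribosomal proteins are encoded in the nucleus, made in the cytosol and imported into mitochondria, where they assemble with the 12S and 16S rRNAs of the mitochondrial genome into a ribosome that translates the mitochondrial mRNAs. Those mRNAs all encode subunits of the respiratory chain and ATP synthase. The genes examined here were the protein-coding genes of the GENCODE annotation of GRCm38 whose symbol is Mrpl or Mrps followed by a number, without pseudogenes, and with at least 10 counts in at least 4 of the 32 libraries. All 78 such genes passed that filter, out of 55414 gene identifiers in the count table. Of these genes 49 carry an Mrpl and 29 an Mrps symbol. By their place in the mammalian structure, 51 belong to the large subunit, which includes Mrps30 and Mrps18a despite their names, and 26 to the small subunit. The product of Mrps36 is a subunit of the 2-oxoglutarate dehydrogenase complex, a TCA cycle enzyme, and is counted in neither.

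The series profiled poly(A) RNA of cultured mouse cardiac fibroblasts, the matrix-producing cells of the heart, by sequencing, and its title names a switch of the pyruvate kinase gene Pkm from the PKM2 to the PKM1 form. All groups carry the genotype given as C57BL/6J_Pkm2fl/fl, a floxed allele, and received either iCre, a Cre recombinase that deletes floxed sequence, or LacZ as the control. Serum-starved passage 1 cells were treated for 24 h with 1 of 3 agents, and the titles of the remaining libraries read SS, whose meaning is not given. The agents were bFGF (basic fibroblast growth factor) at 20 ng/ml, IL-1b (interleukin-1 beta) at 15 ng/ml and TGFb (transforming growth factor beta) at 10 ng/ml. This gave 8 groups of 4 libraries: LacZ with SS, bFGF, IL-1b or TGFb, and iCre with the same 4 conditions. How the vectors were delivered is not given. Maintenance medium held bFGF for every group before treatment. The protocol text with the doses names mice with a floxed TAK1 gene (TAK1fl/fl) and a TNFa treatment, neither of which is among the titles. The treatment tags of the 16 LacZ libraries name other treatments than their titles do, and the titles were followed. The labels do not say whether libraries of a group came from separate mice, so p-values measure the spread between these libraries, which may be technical.

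Total counts ran from 20736203 to 34995038 per library, and the 78 genes together held 0.154% to 0.225% of them. Pkm was lower in the iCre library than in the LacZ library with the same condition and number in all 16 cases, but counts per gene cannot separate the PKM1 and PKM2 forms. The iCre library was also the deeper in all 16, by 1.02 to 1.22 times. Levels are given in CPM, counts scaled to a common library size. Fibroblast markers summed to 21273 to 66736 CPM per library and leukocyte markers to 38.5 to 1013 CPM. Mural markers summed to 130.5 to 1089 CPM. Of the 7 cardiomyocyte markers, Myh6, Myh7, Actc1 and Nppa did not exceed 0.529 CPM, whereas Ryr2 reached 0.969, Tnni3 3.59 and Tnnt2 125 CPM.

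Because most of the genes moved together under TGFb , the stretch before their start sites is shown first for members that differ in that response. Promoter sequences from RefSeq (GRCm38.p6, 250 bases before to 50 after each start) were matched for 69 of the 78 genes. Each line gives the 100 bases before the first annotated start, 5′ to 3′ on the gene's strand, with motif matches in capitals. The first 4 hold CCGGAAG or its reverse complement CTTCCGG, the core bound by ETS factors such as GABP, and belong to genes that rose with TGFb in both vectors. They lie at chr14:54426809-54426908 (plus strand), chr9:98601680-98601779 (minus), chr11:58171561-58171660 (plus) and chr19:45006443-45006542 (minus).
Mrpl52: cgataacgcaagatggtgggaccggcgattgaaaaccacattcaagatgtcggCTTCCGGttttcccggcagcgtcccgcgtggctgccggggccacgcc
Mrps22: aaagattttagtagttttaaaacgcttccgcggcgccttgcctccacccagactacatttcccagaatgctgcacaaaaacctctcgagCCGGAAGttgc
Mrpl22: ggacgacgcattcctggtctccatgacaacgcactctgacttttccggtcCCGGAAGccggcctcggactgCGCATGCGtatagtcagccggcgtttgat
Mrpl43: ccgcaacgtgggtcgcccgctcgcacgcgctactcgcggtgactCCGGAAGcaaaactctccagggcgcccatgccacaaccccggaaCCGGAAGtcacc
Mrpl22 also holds GCATGCG, the core of the motif of NRF1, a factor known for its many targets among nuclear genes of mitochondria, on both strands at overlapping positions. The next line is Mrps18a, which holds the same CCGGAAG and did not pass the test under TGFb in either vector (chr17:46110886-46110985, plus).
Mrps18a: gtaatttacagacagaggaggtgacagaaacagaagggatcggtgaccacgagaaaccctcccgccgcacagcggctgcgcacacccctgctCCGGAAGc
The last pair are the gene with the largest rise under TGFb in LacZ, Mrpl20, with an E-box (CACGTG), the core bound by MYC and related factors, and the gene that fell, Mrps6, with none of the 4 motifs in these bases (chr4:155802778-155802877 and the same stretch of Mrps6, both plus).
Mrpl20: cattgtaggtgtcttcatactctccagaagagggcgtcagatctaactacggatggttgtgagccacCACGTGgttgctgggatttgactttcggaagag
Mrps6: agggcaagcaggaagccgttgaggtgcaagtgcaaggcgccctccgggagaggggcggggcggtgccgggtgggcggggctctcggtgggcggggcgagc

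Over the whole RefSeq window on both strands, CCGGAAG occurred in 26 of the 69 genes (37.7%, exact 95% binomial interval 26.3% to 50.2%), against 12.95% of 17492 protein-coding genes and 9.93% of all 27025 genes. Counted by window, it was in 34.7% of 75 member windows against 8.86% of all 32851 promoter windows. In the bases before the start alone CCGGAAG occurred in 18 genes (26.1%). For those bases alone no share over other genes is given for any motif. GCATGCG occurred in 8 genes (11.6%) against 4.96% of protein-coding genes, and GATGGCG, the core of the YY1 motif, also in 8 (11.6%) against 4.95%, each with an exact interval of 5.14% to 21.6%. Before the start alone, GCATGCG was in all 8 and GATGGCG in only 2 (2.90%). CACGTG occurred in 5 (7.25%) against 8.91%. A match describes letters in a window and no binding was measured.

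The members were expressed at moderate and unequal levels. Levels between genes are given as CPM per kilobase of exon, averaged over the 32 libraries with the SD over them. The median over the 78 genes was 8.43, with 9.59 for the large and 7.49 for the small subunit. The highest was Mrps21 at 38.8 ± 6.68 (SD, n = 32), followed by Mrpl54 at 28.7 ± 5.63, Mrpl10 at 27.0 ± 2.04, Mrpl34 at 26.0 ± 4.30 and Mrpl27 at 25.4 ± 3.41. The neighbours in that order from Mrpl54 to Mrpl27 differed by less than their SD. The lowest were Mrps22 at 2.78 ± 0.593, Mrps25 at 2.51 ± 0.381, Mrps30 at 2.33 ± 0.290, Mrps35 at 1.497 ± 0.231 and Mrpl53 at 1.197 ± 0.473. The highest and lowest level were 32.4-fold apart, although the encoded proteins are parts of one particle. With the length of the longest transcript in place of all exons, Mrps21, Mrpl54 and Mrpl27 kept ranks 1, 2 and 5 and Mrpl53 stayed last, but Mrpl10 moved from rank 3 to 9, Mrpl34 from 4 to 10, Mrpl20 from 16 to 3 and Mrpl24 from 9 to 4. The Mrpl53 value rests on 9 to 56 counts per library, and 88.0% of its exon bases overlap the predicted gene Gm42688 on the same strand, so its counts are uncertain.

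TGFb raised most of the 78 genes. In LacZ cells 62 rose, 1 fell and 15 did not pass the test (edgeR's quasi-likelihood test, Benjamini-Hochberg adjusted p under 0.05 over all 16760 genes tested). Of all tested genes 23.4% were called higher and 22.9% lower, 46.3% in all. The median log2 difference over the members was 0.48, a 1.397-fold rise, against -0.06 over all genes. In iCre cells 52 rose and 0 fell, where 20.2% of all genes were called higher and 18.1% lower (38.3% in all), with a median of 0.33 against -0.05. With total counts as the scale, which moves the median of all genes to -0.26 in LacZ and -0.27 in iCre, 37 rose and 1 fell in LacZ, and 16 and 1 in iCre. The shares of all genes given here and below belong to the main test. No such share is given for counts on the total-count scale, from DESeq2, with a replicate or pair block, or with libraries left out. Those counts stand without a background. In bulk RNA such as this, fewer cells of a type and less RNA per cell cannot be told apart. For TGFb against SS in iCre, 62 of the 78 had an unadjusted p under 0.05 in the main edgeR test. DESeq2 called 52 higher and 0 lower in iCre. With the replicate number as a block 64 rose and 1 fell in LacZ, and 57 and 1 in iCre. Between the vectors 51 genes rose in both, 63 in at least 1, and 15 in neither. Both subunits took part: 41 of 51 large and 20 of 26 small subunit genes rose in LacZ (medians 0.45 and 0.51), and 35 and 16 in iCre (0.33 and 0.32). In LacZ 55 members had TGFb libraries all above and 0 all below the SS libraries, against 21.1% and 20.3% of all genes, and in iCre 47 and 0, against 16.4% and 13.9%.

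**Figure D1:**
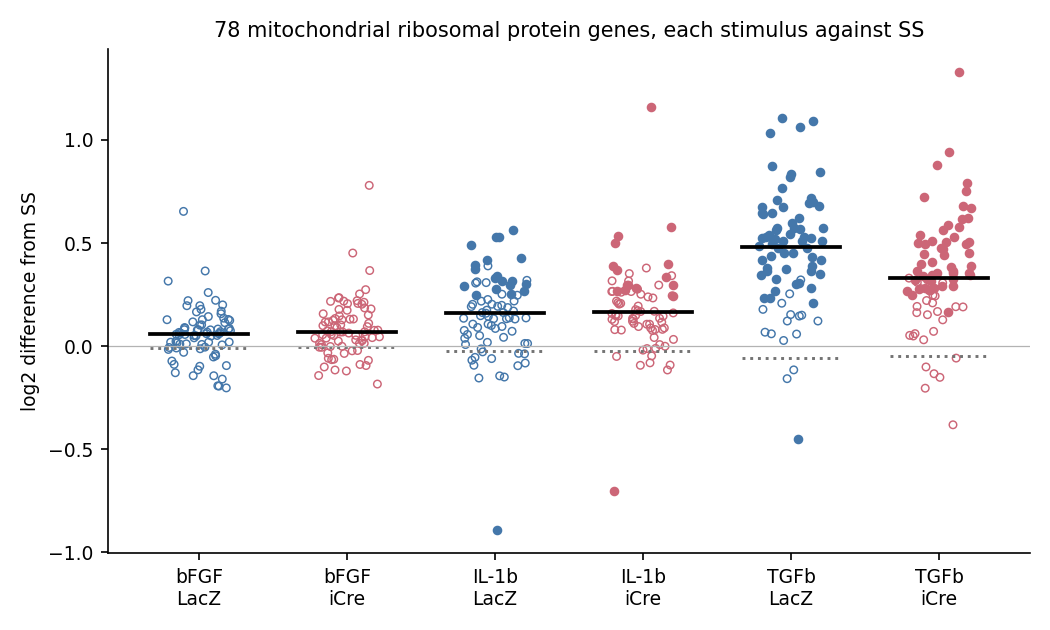
The log2 difference from SS of each of the 78 genes (points) under bFGF, IL-1b and TGFb in LacZ (blue) and iCre (red); filled points have an adjusted p under 0.05, black bars are the medians of the 78 genes and dotted bars those of all 16760 genes. The cloud lies near 0 under bFGF and highest under TGFb, with medians of 0.48 and 0.33, and 1 filled point (Mrps6) lies below 0 under IL-1b in each vector and under TGFb in LacZ.

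The largest rise in LacZ belonged to Mrpl20, a large subunit protein (chr4:155802878-155809975, plus strand, GRCm38). Its level was 24.4, 17.1, 24.8 and 19.7 CPM in the LacZ SS libraries (numbers 1 to 4) and 41.1, 54.0, 48.2 and 41.9 CPM with TGFb. The groups did not overlap, and the log2 difference was 1.11 ± 0.14 (SE, n = 4 and 4, adjusted p = 5.78e-07). In iCre cells Mrpl20 went from 21.7, 21.6, 26.1 and 18.7 CPM to 47.4, 43.2, 43.5 and 35.2 CPM, a log2 difference of 0.94 ± 0.14 (adjusted p = 9.12e-06), again without overlap.

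Mrps28, of the small subunit (chr3:8802146-8923918, minus strand), was at 7.73, 7.63, 8.73 and 6.36 CPM in LacZ SS and at 14.7, 21.2, 14.6 and 14.5 CPM with TGFb (log2 difference 1.09 ± 0.17, adjusted p = 8.69e-06). Number 2 stood above the other 3 TGFb libraries, which were close together and all above SS. In iCre the rise was 0.79 ± 0.17 (adjusted p = 0.000544), from 6.68 to 9.62 CPM in SS to 11.6 to 14.9 CPM.

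Mrps18b is one of 3 mammalian paralogs of the bacterial S18 protein and sits in the small subunit (chr17:35910379-35916389, minus strand). It rose from 11.4, 11, 12.8 and 13.1 CPM to 22.5, 29.4, 25.2 and 23.9 CPM in LacZ (1.06 ± 0.11, adjusted p = 4.65e-08) and by 0.75 ± 0.11 in iCre (adjusted p = 1.01e-05). Mrps18c, the paralog that also sits in the small subunit, rose by 0.51 ± 0.11 and 0.62 ± 0.11 (adjusted p = 0.000345 and 5.64e-05). Mrps18a, the paralog in the large subunit, did not follow them. It was at 16.6, 19.2, 19.2 and 20.9 CPM in LacZ SS and 16.5, 19.9, 14.4 and 17.2 CPM with TGFb, with overlapping groups and log2 differences of -0.16 ± 0.13 (adjusted p = 0.328) and, in iCre, -0.13 ± 0.13 (adjusted p = 0.435).

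Among other large subunit genes, Mrpl52 rose by 1.03 ± 0.13 in LacZ and 0.88 ± 0.13 in iCre, and Mrpl17 by 0.87 ± 0.09 and 0.72 ± 0.09. Mrpl12, whose product also binds the mitochondrial RNA polymerase, rose from 23.6, 24.1, 30.1 and 28.0 CPM to 41.2, 53.2, 51.6 and 43.8 CPM in LacZ (0.84 ± 0.11, adjusted p = 4.95e-07) and by 0.67 ± 0.11 in iCre (adjusted p = 1.9e-05). Mrpl58, a peptidyl-tRNA hydrolase built into the large subunit, rose less, by 0.34 ± 0.11 and 0.28 ± 0.11 (adjusted p = 0.00912 and 0.0400), and its LacZ groups overlapped. Mrps30 was at 0.21 ± 0.10 in LacZ (adjusted p = 0.0771) and rose by 0.27 ± 0.10 in iCre (adjusted p = 0.0290). Mrps36, outside the ribosome, rose by 0.55 ± 0.13 and 0.45 ± 0.13 (adjusted p = 0.000859 and 0.00531). Mrpl53 rose by 0.82 ± 0.33 and 1.33 ± 0.33 on its few counts (adjusted p = 0.0423 and 0.0022), while Gm42688, which covers most of its exons, was at -0.79 ± 0.21 in LacZ (adjusted p = 0.00361).

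**Figure D2:**
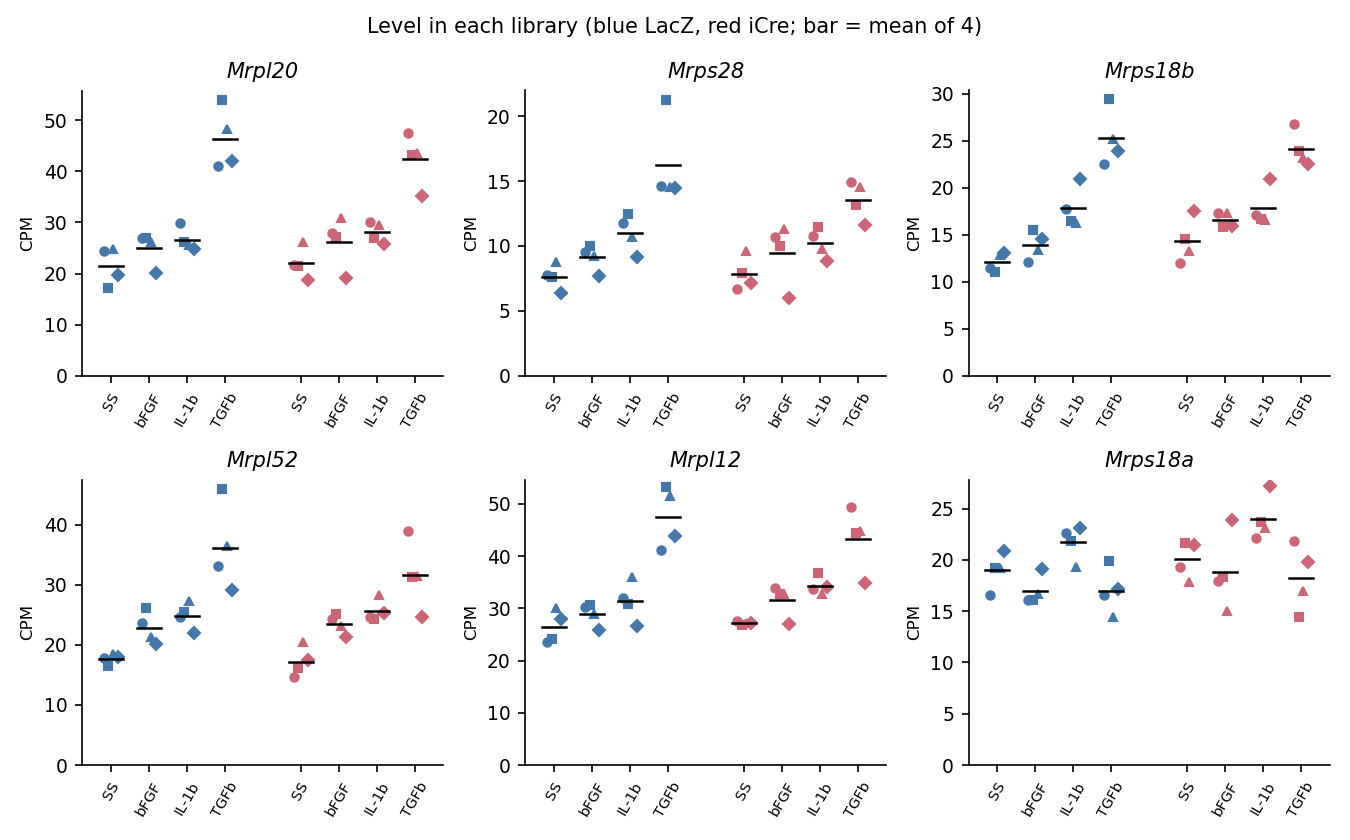
Levels of 6 members in CPM in each of the 32 libraries (circle, square, triangle and diamond are numbers 1 to 4), LacZ in blue and iCre in red, with bars at the mean of 4. Mrpl20, Mrps28, Mrps18b, Mrpl52 and Mrpl12 stand highest with TGFb in both vectors, whereas the TGFb libraries of Mrps18a overlap those of SS.

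The 15 genes that did not rise with TGFb in either vector were Mrpl4, Mrpl13, Mrpl14, Mrpl24, Mrpl42, Mrpl44, Mrpl45, Mrpl49, Mrps5, Mrps6, Mrps9, Mrps15, Mrps17, Mrps18a and Mrps35. Some of them varied little over the study: the 8 group means of Mrps9, Mrps5, Mrpl4 and Mrps17 spanned only 0.16, 0.17, 0.20 and 0.20 on the log2 scale. The widest spans were those of Mrpl53 (1.34), Mrps6 (1.21), Mrpl20 (1.11) and Mrps28 (1.09).

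Mrps6, a small subunit protein (chr16:92058270-92112227, plus strand), was the one member that fell. Under IL-1b it went from 42.5, 39.8, 36.3 and 31.9 CPM in LacZ SS to 17.9, 17.6, 26.1 and 19.3 CPM, without overlap (-0.89 ± 0.18, adjusted p = 0.000842). In iCre it went from 38.4, 42.0, 32.1 and 25.3 CPM to 22.6, 21.5, 22.3 and 18.2 CPM (-0.70 ± 0.18, adjusted p = 0.0081), also without overlap. Under TGFb it was at 25.4, 32.1, 30.6 and 21.8 CPM in LacZ, where number 2 lay just above the lowest SS library at 31.9 CPM (-0.45 ± 0.18, adjusted p = 0.0423), and the iCre difference of -0.38 ± 0.18 did not pass (adjusted p = 0.0971). With the replicate number as a block both passed (adjusted p = 0.00207 and 0.0104). The fall under TGFb in LacZ was lost when any of 6 single libraries was left out (LacZ SS numbers 1, 2 and 3, TGFb numbers 1 and 4, IL-1b number 4), with an adjusted p of up to 0.139, and without the filter on low counts (adjusted p = 0.0658).

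Exons of Mrps6 overlap those of Slc5a3, the gene of a myo-inositol transporter, on the same strand. They share 159 bases, 10.4% of those of Mrps6. Slc5a3 was at 83.0, 97.0, 62.0 and 63.3 CPM in LacZ SS, 139, 171.8, 123 and 100.2 CPM with bFGF, 15.1, 21.8, 40.5 and 22.5 CPM with IL-1b and 26.5, 22, 33 and 24 CPM with TGFb. It fell by 1.61 ± 0.27 with IL-1b and by 1.53 ± 0.27 with TGFb on the log2 scale (adjusted p = 0.000104 and 4.55e-05), and by 1.60 ± 0.27 and 1.202 ± 0.27 in iCre. The bFGF libraries lay above all SS libraries of LacZ, but the difference of 0.81 ± 0.26 did not pass (adjusted p = 0.1004). Mrps6 with bFGF was 0.32 ± 0.18 in LacZ and 0.37 ± 0.18 in iCre, neither called (adjusted p = 0.399 and 0.310). How reads of the shared bases were counted is not given in the sources used here, and the part of Slc5a3 reads in the Mrps6 values was not tested.

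**Figure D3:**
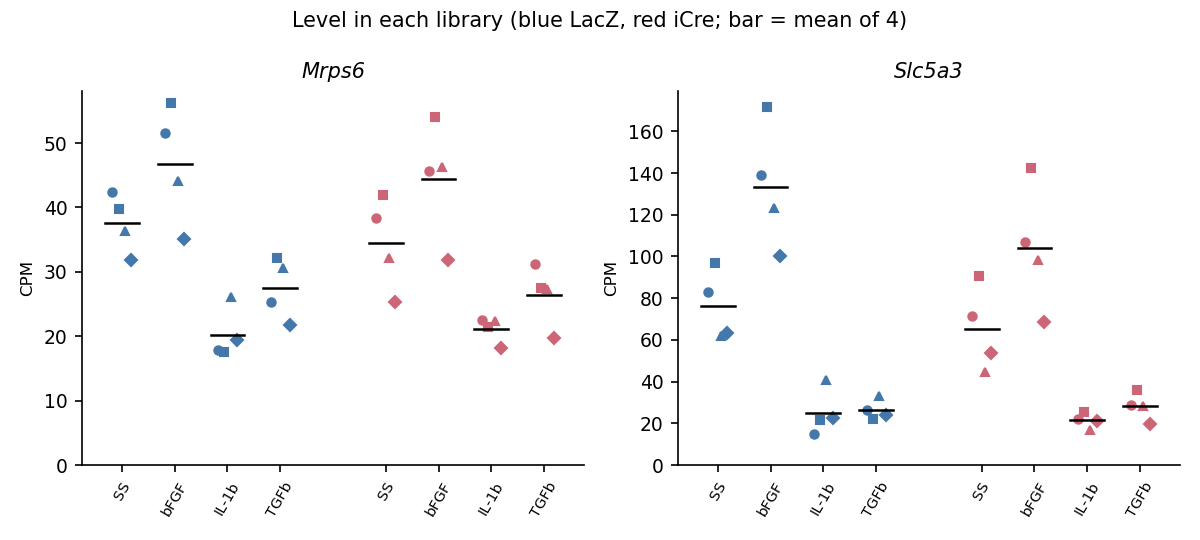
Levels of Mrps6 and of its same-strand neighbour Slc5a3 in CPM in each of the 32 libraries (symbols are numbers 1 to 4), LacZ in blue and iCre in red, with bars at the mean of 4. Both genes stand lowest with IL-1b or TGFb in each vector, and Slc5a3 moves further, by -1.61 with IL-1b in LacZ against -0.89 for Mrps6.

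IL-1b raised fewer members and by less. In LacZ 19 rose and 1 fell (median 0.16), where 11.1% of all genes were called higher and 8.13% lower (19.2% in all), and in iCre 15 rose and 1 fell (median 0.16), against 8.88% and 6.84% (15.7% in all). Groups did not overlap for 24 members that were higher and 3 lower in LacZ (13.1% and 11.1% of all genes), and for 26 and 2 in iCre (10.6% and 8.5%). With total counts as the scale 6 rose and 1 fell in LacZ, and 5 and 1 in iCre. With the replicate number as a block 26 rose and 1 fell in iCre. The members called higher numbered 11 in both vectors and 23 in at least 1. In LacZ all 19 were also among the 62 that rose with TGFb (30.6% of those), and in iCre 14 of 15 were (26.9% of 52), Mrpl1 being the other, but both comparisons use the same SS libraries. As 62 and 52 of the 78 members rose with TGFb, much of this overlap follows from the size of those lists.

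Mrpl54, of the large subunit, was at 18.5, 16.9, 20.8 and 17.2 CPM in LacZ SS and 28.3, 25.2, 26.6 and 25.8 CPM with IL-1b, and it rose by 0.53 ± 0.10 in each vector (adjusted p = 0.000534 in LacZ and 0.000646 in iCre) with no overlap. Mrps18b rose by 0.56 ± 0.11 in LacZ (adjusted p = 0.000741) and was at 0.32 ± 0.11 in iCre (adjusted p = 0.0554, and 0.0256 with the block). Mrpl27 rose by 0.42 ± 0.09 and 0.39 ± 0.09 with IL-1b, more than its 0.23 ± 0.09 and 0.29 ± 0.09 with TGFb, although the direct difference between the stimuli, averaged over the vectors, was 0.14 ± 0.07 and did not pass (adjusted p = 0.0735). Mrpl38 rose by 0.43 ± 0.11 and 0.40 ± 0.11, Mrpl52 by 0.49 ± 0.13 and 0.58 ± 0.13, and Mrps18c by 0.34 ± 0.11 and 0.50 ± 0.11. The IL-1b counts depend on single libraries: 12 rose without LacZ IL-1b number 3, 9 without LacZ SS number 1 and 12 without LacZ SS number 2. In iCre 9 rose without IL-1b number 2 or 3, 7 without SS number 1 and 6 without SS number 2.

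bFGF changed no member by the test in either vector, where 1.64% (LacZ) and 1.44% (iCre) of all genes were called higher and 0.919% and 0.752% lower (2.56% and 2.2% in all). Groups did not overlap for 1 member higher and 1 lower in LacZ (5.21% and 4.82% of all genes), and for 6 and 0 in iCre (4.55% and 3.2%). The medians were 0.06 and 0.07, and 2 and 6 members had an unadjusted p under 0.05 in edgeR. DESeq2 called 0 in LacZ and 1, Mrpl52, in iCre. Mrpl52 was at 17.8, 16.6, 18.4 and 18.0 CPM in LacZ SS and 23.7, 26.1, 21.4 and 20.1 CPM with bFGF, without overlap (0.36 ± 0.13, adjusted p = 0.128). In iCre it was at 0.45 ± 0.13 (adjusted p = 0.0576). With the replicate number as a block Mrpl52 passed in both vectors (adjusted p = 0.0436 and 0.0137), and Mrps6 passed in iCre (adjusted p = 0.0468). The next smallest p values in LacZ belonged to Mrpl58 (0.22 ± 0.11), Mrps30 (-0.19 ± 0.10) and Mrpl53 (0.65 ± 0.33), and in iCre to Mrpl53 (0.78 ± 0.33), Mrpl33 (0.22 ± 0.09) and Mrpl58 (0.23 ± 0.11), none with an adjusted p under 0.222.

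Set against each other and averaged over the vectors, the stimuli were ordered in the members as bFGF, IL-1b, TGFb. Between bFGF and TGFb 59 members were higher with TGFb and 1 with bFGF, against 26.1% and 26% of all genes (52.1% in all), with a median of -0.37 for bFGF minus TGFb (35 and 3 with total counts as the scale). The 1 higher with bFGF was Mrps6 (0.76 ± 0.13), and the largest differences among those higher with TGFb were Mrpl20 (-0.79 ± 0.10), Mrps18b (-0.70 ± 0.08), Mrps28 (-0.67 ± 0.12) and Mrps12 (-0.67 ± 0.09). Between IL-1b and TGFb 55 were higher with TGFb and 1, Mrps18a, with IL-1b (26.5% and 24.1% of all genes, 50.6% in all, median -0.24; 20 and 7 with total counts). Between bFGF and IL-1b 22 were higher with IL-1b and 1, Mrps6, with bFGF (13% and 12.9% of all genes, 25.9% in all, median -0.12; 5 and 2 with total counts). Mrps18a was 0.37 ± 0.09 above its TGFb level with IL-1b (adjusted p = 0.00123). Mrps6 was 1.14 ± 0.13 higher with bFGF than with IL-1b (adjusted p = 1.55e-07). Mrps36 was -0.59 ± 0.09 with IL-1b against TGFb (adjusted p = 3.36e-06), while its difference of IL-1b from SS was -0.09 in each vector (adjusted p = 0.669 in LacZ and 0.689 in iCre).

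The size of the TGFb rise differed between libraries of the same number. The median member difference between TGFb and SS was 0.32, 0.75, 0.39 and 0.32 for numbers 1 to 4 in LacZ and 0.48, 0.31, 0.25 and 0.28 in iCre. LacZ TGFb number 2 therefore stood above the rest, with 77 of 78 members higher than in its SS library. Without all number 2 libraries 44 members rose with TGFb in LacZ (median 0.36), and without all number 1 libraries 27 rose in iCre. The summed level of the 78 genes was 1536 ± 31.5 CPM in LacZ SS (SD, n = 4) and 2080 ± 263 CPM in LacZ TGFb, and 1582 ± 18.7 and 1982 ± 109 CPM in iCre.

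**Figure D4:**
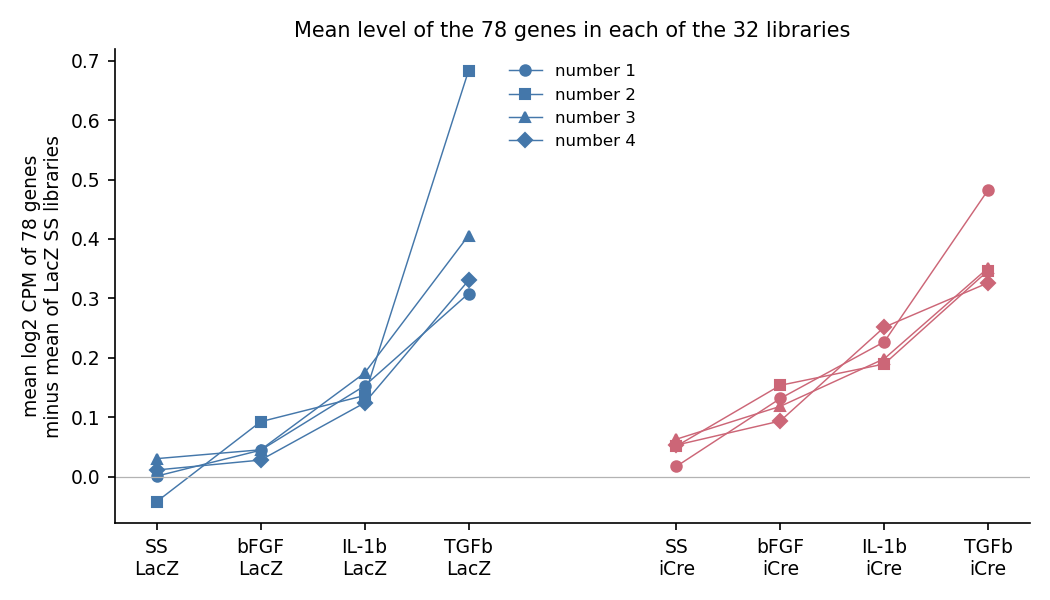
Mean log2 CPM of the 78 genes in each of the 32 libraries, minus the mean of the LacZ SS libraries; lines join libraries of the same number and vector. Every TGFb library lies above every SS, bFGF and IL-1b library, with values from 0.308 to 0.683, and LacZ TGFb number 2 is the highest.

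No member passed the test between iCre and LacZ. In each of the 4 conditions 0 of 78 were called, with 0 called among all genes, and 0 in the average over conditions, where 0.0179% of all genes were called higher and 0.0895% lower (0.107% in all). Median differences of iCre against LacZ were 0.04 in SS, 0.09 with bFGF, 0.07 with IL-1b, -0.07 with TGFb and 0.03 in the average. Members with an unadjusted p under 0.05 in edgeR numbered 4, 3, 2, 5 and 10 in the same order, and DESeq2 called 0 in each. In the average the differences ran from -0.15 to 0.15. The smallest p values belonged to Mrpl49 (0.15 ± 0.04, adjusted p = 0.244), Mrps25 (0.14 ± 0.05, adjusted p = 0.390), Mrps34 (-0.15 ± 0.05, adjusted p = 0.430) and Mrps33 (0.14 ± 0.05, adjusted p = 0.502). With a block for each pair of libraries of the same condition and number, Mrps34 was called lower (-0.14 ± 0.04, adjusted p = 0.0468). Its exons overlap Mapk8ip3 on the other strand over 63.4% of their length and Nme3 on the same strand over 37.0%.

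Whether iCre altered the response to a stimulus was tested by interaction terms, and 0 members were called for any of the 3 stimuli (0% of all genes, and 0 members by DESeq2). Unadjusted p values under 0.05 numbered 0, 0 and 2 for bFGF, IL-1b and TGFb. For TGFb the median interaction was -0.13, with 65 of 78 members lower in iCre and 2 with an unadjusted p under 0.05, Mrps12 (-0.41 ± 0.18) and Mrps10 (-0.24 ± 0.12), both with adjusted p = 1. By number the median iCre minus LacZ difference with TGFb was 0.18, -0.32, -0.07 and 0.004, with 67, 4, 24 and 39 of 78 members higher in iCre, so number 2 had the lowest value and number 1 the opposite sign.

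Gene length moved with the TGFb contrast. Over all tested protein-coding genes in LacZ the median log2 difference was 0.21 for those with a longest transcript of up to 1000 bases and -0.22 for those above 5000 bases. The members' medians in the same 6 length classes lay between 0.37 and 0.55, above the median of all genes in each. In the class of up to 1000 bases 16 of 17 members rose against 38.0% of all genes, and between 3000 and 5000 bases 14 of 18 rose against 24.6%. Above 5000 bases lie 4 members, of which 2 rose. The part of length in the members' rise was not tested.

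**Figure D5:**
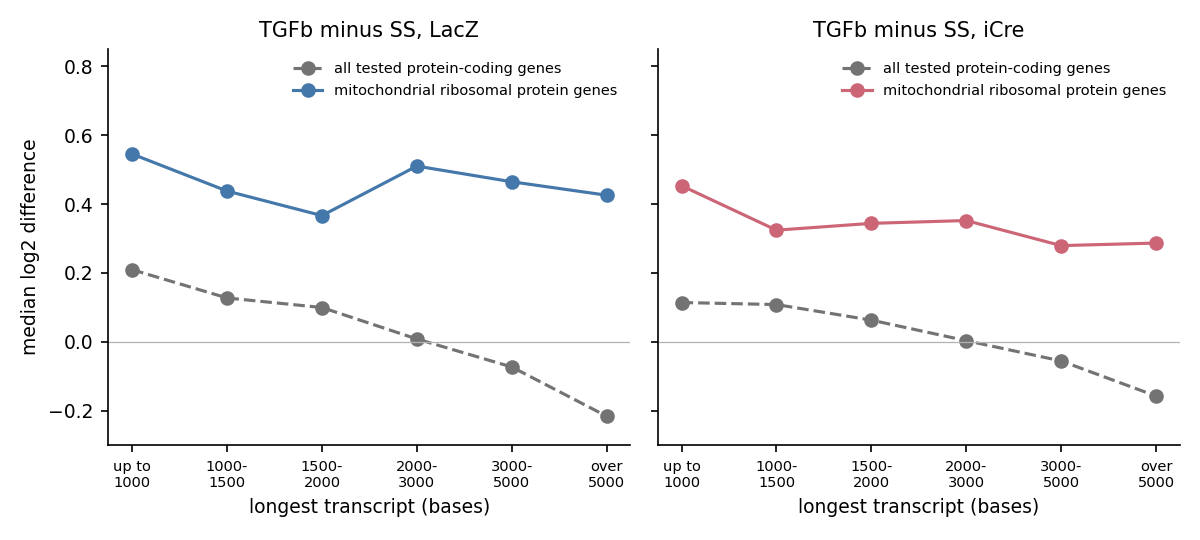
Median log2 difference between TGFb and SS in 6 classes of longest transcript length (bases), for all tested protein-coding genes (grey, dashed) and for the members (solid), in LacZ and iCre. The grey line falls from 0.21 to -0.22 in LacZ, whereas the members stay between 0.37 and 0.55.

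Some markers were called with TGFb as well, where 23.4% of all genes were called higher and 22.9% lower in LacZ. In LacZ 1 of 10 fibroblast markers rose and 6 fell, and 1 of 6 mural markers rose and 2 fell. Of the rest, 2 of 5 tested endothelial, 1 of 12 leukocyte and 1 of 3 tested cardiomyocyte markers fell. For lists this short, a few calls near those shares say little. Summed over their lists, fibroblast markers were at 37662 to 58245 CPM in LacZ SS and 39790 to 56313 CPM with TGFb, leukocyte markers at 77.5 to 579 and 43.6 to 387 CPM, and endothelial markers at 17.1 to 34.6 and 5.94 to 10.8 CPM. Their part in the members' rise was not tested. In iCre 1 fibroblast marker rose and 5 fell and 0 leukocyte markers were called, against 20.2% and 18.1% of all genes. Leukocyte markers there summed to 69.0 to 747 CPM in SS and 38.5 to 549 CPM with TGFb. Nppa was at 0 in all LacZ SS libraries.

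Members often share a start region with a neighbour. Of the 78 genes 31 (39.7%) have a tested protein-coding gene starting on the opposite strand within 1000 bases, against 14.4% of 13901 tested protein-coding genes. Mrpl46 and Mrps11 are such neighbours of each other, and the others face 29 genes that are not members. Of those 29 partners 10 rose and 4 fell with TGFb in LacZ (median 0.08), while 24 of the 29 members beside them rose (median 0.51), where 23.4% of all genes were called higher and 22.9% lower. In iCre 8 partners rose and 4 fell (median 0.05), and 22 of the 29 members rose (median 0.36), against 20.2% and 18.1%. Mrpl46 and Mrps11 rose in both vectors. Mrps18b rose by 1.06 and its partner Ppp1r10, 45 bases away, by 0.39, whereas Mrpl57 rose by 0.83 and its partner Ska3, a kinetochore gene 49 bases away, was at -1.64 (adjusted p = 0.00632). Exons of some such pairs overlap, and whether counting used strand is not given in the sources used here.

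With CCGGAAG in the RefSeq window, 25 of 26 members rose with TGFb in LacZ (median 0.54), the exception being Mrps18a, and without it 31 of 43 did (median 0.42). In iCre 22 of 26 and 24 of 43 rose (medians 0.36 and 0.28). All 5 members with CACGTG rose in both vectors, and without it 51 of 64 rose in LacZ and 41 of 64 in iCre. With GCATGCG 8 of 8 rose in LacZ and 6 of 8 in iCre, against 48 of 61 and 40 of 61 without it. With GATGGCG 6 of 8 and 5 of 8 rose, against 50 of 61 and 41 of 61 without it. Of all 78 members 62 rose in LacZ and 52 in iCre, and of all genes 23.4% and 20.2% were called higher. With so many members rising, groups of 5 or 8 that all rose say little. Shares over all genes that hold a motif are not given. These are descriptions of sequence classes and were not tested.

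Other genes of mitochondrial translation are set beside the 23.4% (LacZ) and 20.2% (iCre) of all genes called higher with TGFb. The 5 mitochondrial ribosomal proteins without an Mrp symbol (Dap3, Chchd1, Aurkaip1, Ptcd3 and Gadd45gip1) all rose in both vectors, for example Gadd45gip1 by 0.65 ± 0.11 in LacZ and 0.43 ± 0.11 in iCre. Of 13 tested translation factors 6 rose in LacZ (46.2%) and 4 in iCre (30.8%) (medians 0.15 and 0.02, which turn to -0.05 and -0.21 with total counts as the scale). Tufm, the elongation factor that brings aminoacyl-tRNA to the ribosome, rose by 0.63 ± 0.09 and 0.58 ± 0.09, and its exchange factor Tsfm by 0.55 ± 0.10 and 0.50 ± 0.10. Of 24 genes of ribosome assembly and rRNA modification 8 (33.3%) and 5 (20.8%) rose, the latter near the share over all genes, and 0 fell (4 rose and 3 fell in LacZ, and 2 and 2 in iCre, with total counts), among them the rRNA methyltransferase Nsun4 (0.96 ± 0.13 and 0.58 ± 0.12) and the GTPase Noa1 (0.82 ± 0.10 and 0.76 ± 0.10). Of 11 genes of mitochondrial transcription and mRNA stability 5 (45.5%) and 2 (18.2%) rose, the latter below the share over all genes (the iCre median of 0.12 turns to -0.10 with total counts), with Slirp, which binds mitochondrial mRNAs, at 0.75 ± 0.10 and 0.61 ± 0.10.

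The rRNAs and mRNAs of the mitochondrial genome were not called higher with TGFb, unlike the mRNAs of most members. The 12S rRNA, mt-Rnr1, was at 172.9, 139.6, 133.9 and 125.3 CPM in LacZ SS and 74.5, 97.3, 77.3 and 54.7 CPM with TGFb, without overlap. It fell by 0.91 ± 0.20 in LacZ and by 0.92 ± 0.20 in iCre on the log2 scale (adjusted p = 0.000483 and 0.000605). The 16S rRNA, mt-Rnr2, fell in iCre by 0.59 ± 0.16 (adjusted p = 0.00527) and was at -0.35 ± 0.16 in LacZ (adjusted p = 0.0792, and 0.0344 with the block). None of the 13 mitochondrial mRNAs was called in any stimulus contrast, and with the block 1 to 4 were called lower in 5 of the 6. Their mean levels in LacZ SS were very uneven, from 0.822 CPM for mt-Nd3 and 0.958 CPM for mt-Nd4l to 2784 CPM for mt-Co1. For those near the floor a missing call says little. Libraries were made from poly(A) RNA, in which mitochondrial rRNA is captured only in part.

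Among 9 regulators of mitochondrial biogenesis, 3 (33.3%) rose with TGFb in each vector, and 1 fell in LacZ and 2 in iCre (4 and 3 with the replicate block, 3 and 4 with total counts). Of all genes 23.4% (LacZ) and 20.2% (iCre) were called higher, and 22.9% and 18.1% lower. For a list of 9 genes the main counts are near those shares. Myc, a transcription factor of growth and ribosome genes, was at 11.5, 10.6, 12.9 and 19.0 CPM in LacZ SS and 47.1, 51.1, 56.4 and 36.0 CPM with TGFb (1.82 ± 0.27, adjusted p = 5.71e-06), and it also rose with IL-1b (1.09 ± 0.27, adjusted p = 0.00452). Pprc1, a coactivator related to PGC-1alpha, rose by 1.05 ± 0.17 with TGFb and 0.58 ± 0.17 with IL-1b in LacZ. Gabpb1, a subunit of the ETS factor GABP, rose by 0.41 ± 0.10. The other GABP subunit, Gabpa, was at -0.12 ± 0.09 in LacZ (63.2 CPM in SS and 58.3 CPM with TGFb), Nrf1 at 0.14 ± 0.09 (22.2 and 24.5 CPM) and Yy1 at -0.13 ± 0.08 (89.1 and 81.5 CPM), none called in either vector without the block (adjusted p = 0.316, 0.201 and 0.172 in LacZ). With the block Yy1 was called lower in both vectors (adjusted p = 0.0360 and 0.0380). Esrra, an orphan nuclear receptor, was at -0.18 ± 0.09 in LacZ (adjusted p = 0.0814, and 0.0391 with the block) and fell by 0.23 ± 0.08 in iCre (adjusted p = 0.0302). Ppargc1a, which encodes PGC-1alpha, was called lower in both vectors, from 0.124 to 2.84 CPM in LacZ SS to 0 to 0.0509 CPM with TGFb. Number 4 held the highest SS level in each vector.

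Other families of ribosomal and mitochondrial genes rose with TGFb too, where 23.4% (LacZ) and 20.2% (iCre) of all genes were called higher. Of 76 cytosolic ribosomal protein genes 74 rose in LacZ and 54 in iCre (medians 0.43 and 0.30), and of 73 nuclear respiratory chain genes 60 and 47 (medians 0.43 and 0.30). With total counts as the scale these counts were 35 and 5, and 33 and 14. With IL-1b, 0 cytosolic ribosomal protein genes passed in either vector, and 4 and 5 respiratory chain genes rose, against 19 and 15 of the members. Of all genes 11.1% (LacZ) and 8.88% (iCre) were called higher with IL-1b. The differences between these families were not tested.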

How the data were processed

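The authors deposited 1 table of raw read counts, with 55414 Ensembl gene identifiers in rows and 32 libraries in columns. Per the submitters' processing notes, FastQC 0.10.1 and HTSeq 0.10.0 were used with mm10/GRCm38. The aligner is not given in the sources used here, nor are the strand setting, counting mode or annotation release. GENCODE M21 matched 52133 identifiers (99.77% of counts), and 0 columns were without a sample.

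The main test was the quasi-likelihood test of edgeR 4.0.16 under R 4.3.3, on TMM-scaled libraries after filterByExpr, with 1 mean per title group over all 32 libraries, robust and two-sided, with Benjamini-Hochberg adjustment over 16760 genes and a threshold of 0.05, in 17 contrasts. CPM values are scaled by TMM. Members named are, per contrast, up to 6 that rose and 6 that fell by size, or the 4 with the smallest p where fewer than 3 passed, plus Mrps30, Mrps18a, Mrps18b, Mrps18c, Mrps36, Mrpl12 and Mrpl58, the 5 highest and 5 lowest by level, the 4 widest and 4 narrowest by range, and up to 4 genes of each list. Other names were chosen after their values were seen, as were the sequences printed. The members and lists were chosen with earlier results of these data known. Same-numbered libraries deviated together (correlations 0.153 to 0.857 over 40 pairs, each above 0.1), so the numbers in the titles pair the libraries. The main test leaves this pairing out, and the replicate block takes it in. Scripts were tested on simulated counts drawn without such pairing, so that test says nothing on paired libraries. Alternatives were other scalings, no filter, DESeq2 1.42.0, replicate and pair blocks, and leaving out libraries or numbers. Intervals cover counting error only.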

Additional observations from a re-analysis of the deposited data

Results flagged for a closer look

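In groups of 4 libraries, 56 checks of single members looked for a library far from the other 3, and 3 were found, where chance gives about 1 in 20. Mrps28 with TGFb in LacZ was highest in number 2 at 21.2 CPM, with the others at 14.5 to 14.7. Mrpl20 with bFGF in LacZ was lowest in number 4 at 20.1 CPM, with the others at 26.1 to 27.0. Mrps18b with IL-1b in iCre was highest in number 4 at 20.9 CPM, with the others at 16.6 to 17.1.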

How the results depend on the processing

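Counts are of members called either way. Scaled by total counts alone, the median of all genes under TGFb moved to -0.26 in LacZ and -0.27 in iCre, and 38 and 17 members were called with TGFb, 7 and 6 with IL-1b, and 7, 38 and 27 for bFGF against IL-1b, bFGF against TGFb and IL-1b against TGFb (2, 3 and 7 of them higher in the first). Relative to all genes the member median with TGFb was then 0.54 in LacZ and 0.37 in iCre, as with TMM. Scaling shifts all genes of a contrast by nearly the same amount. That likeness was therefore fixed in advance and says nothing on the called counts. IL-1b counts were 11 and 10 with upper quartile factors and 11 and 8 with no filter, where bFGF against IL-1b gave 15. The replicate block gave 27 for IL-1b in iCre and 1 and 2 for bFGF in LacZ and iCre, the pair block 1 for the average of iCre against LacZ, and DESeq2 1 for bFGF in iCre. With the replicate block Mrps6 under TGFb had adjusted p values of 0.00207 in LacZ and 0.0104 in iCre. The block changed no other count by over 1.5 times. The cause of these shifts was not tested. With 1 library left out, counts ran from 52 to 65 and 35 to 56 with TGFb (LacZ, iCre), 10 to 23 and 7 to 20 with IL-1b, and 0 to 0 and 0 to 1 with bFGF. With all libraries of a number left out they ran from 44 to 64 and 27 to 51, 4 to 19 and 2 to 24, and 0 to 1 and 0 to 4. For bFGF against IL-1b these ranges were 20 to 24 and 9 to 22, for bFGF against TGFb 58 to 63 and 52 to 65, and for IL-1b against TGFb 47 to 59 and 35 to 59. With libraries or numbers left out, all iCre contrasts and interactions stayed at 0. Values near 0 changed sign: with libraries left out, Mrps36 with bFGF in LacZ ran from -0.0557 to 0.1585 (-0.00251, -0.0155 and -0.0141 among them), Mrps30 with IL-1b in LacZ from -0.1288 to 0.0233 (0.00799), Mrps36 with IL-1b in iCre from -0.1489 to 0.00299 and Mrps18a with TGFb in iCre from -0.262 to 0.00218. For bFGF in iCre, 1 member was called when any of 6 single libraries was left out (iCre bFGF number 4, SS number 3, TGFb numbers 1 and 4, LacZ TGFb numbers 2 and 4). The median SE of a stimulus difference was 0.10.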
